A study of Mus musculus with 9 samples.

Results

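The collagen chain genes were examined in mouse liver after feeding with a high-fat diet (HFD) that was stored either in the freezer (HFDfre group) or at fridge temperature (HFDfri group). All genes whose symbol has the form Col, a number, a and a number were taken, which gave 44 of the 33211 genes of the table. They were placed in 11 fibrillar, 6 basement membrane and 27 other chains. A chain was kept when it had 10 or more counts in at least 4 libraries, which left 27 chains: 9 of the 11 fibrillar, 4 of the 6 basement membrane and 14 of the 27 other chains. All 27 were also among the 14220 genes tested between the diets.

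All animals were male wild-type C57BL/6 mice (C57BL6/J in the study's methods), 8 weeks old when feeding began, that received the same HFD (D12492) for 7 weeks. Opened packages of the diet were held at -20 °C for the HFDfre group (5 libraries) and at 4 °C for the HFDfri group (4 libraries). No group without HFD is among these libraries, so each difference is between storage conditions of one diet. Each library is a separate sample in the labels, which do not say more on how the animals were housed or pooled. Library totals ran from 58614917 to 69353439 counts, and no columns were identical. The ribosomal RNA-like locus Gm26924 took 1.20 to 11.1% of the counts in HFDfre and 0.466 to 5.21% in HFDfri, and mitochondrial genes took 11.4 to 19.8% and 8.93 to 13.6%. The hepatocyte markers were at 96277 to 123854 CPM (counts scaled to a common library size) in sum, and 5 of 12 markers of adipose tissue, muscle and pancreas, Adipoq, Ckm, Cpa1, Plin1 and Prss2, were at 0 in every library. The whole list summed to 30.5 to 61.0 CPM in HFDfre and 26.3 to 46.4 CPM in HFDfri, nearly all of it Cfd and Cela1, and only 3 of the 12 were tested. Cfd, the adipsin gene of adipose tissue, was lower in HFDfri by a log2 fold change of -1.16 (edgeR's unadjusted p 0.0213, adjusted p 0.166). Cela1, a pancreatic elastase gene, was higher by 0.53 (edgeR's unadjusted p 0.0120, adjusted p 0.131). For Cela1 the groups did not overlap, as in 7.69% of all tested genes. The part of Cfd and Cela1 in the results below was not tested.

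Collagens are proteins of the extracellular matrix whose chains wind into a triple helix. Fibrillar collagens such as types I, III and V form the fibrils that accumulate in a scarred liver, where hepatic stellate cells and portal fibroblasts are their main source. Type IV collagen forms the sheet of basement membranes. Among the remaining types, some decorate fibrils, form fine filaments or networks, or span the cell membrane. Col18a1 and Col15a1 belong to a further subfamily, the multiplexins. In bulk liver, fewer cells of a type and less RNA per cell cannot be told apart.

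The bases upstream of the RefSeq start sites are shown for the 4 chains whose unadjusted p was under 0.05 between the diets, so that the genes described below can be set beside one another. Each line gives the 130 bases before the start of the gene on its own strand (RefSeq, GRCm38.p6). Capitals mark the CCAAT box, the TATAAA box and the GC box with the letters GGGCGG. Each was searched on both strands, so that a reverse complement is also in capitals, and the motifs share no overlap in the bases shown.
Col5a3, chr9:20815068-20815197, minus strand: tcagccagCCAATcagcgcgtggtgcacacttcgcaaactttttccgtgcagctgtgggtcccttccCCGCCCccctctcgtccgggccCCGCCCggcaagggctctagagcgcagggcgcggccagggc
Col3a1, chr1:45311408-45311537, plus strand: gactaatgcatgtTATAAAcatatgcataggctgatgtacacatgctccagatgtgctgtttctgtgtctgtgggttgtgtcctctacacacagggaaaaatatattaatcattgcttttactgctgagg
Col1a2, chr6:4505488-4505617, plus strand: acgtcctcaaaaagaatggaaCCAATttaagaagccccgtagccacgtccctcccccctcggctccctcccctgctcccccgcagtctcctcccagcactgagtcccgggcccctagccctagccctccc
Col27a1, chr4:63215282-63215411, plus strand: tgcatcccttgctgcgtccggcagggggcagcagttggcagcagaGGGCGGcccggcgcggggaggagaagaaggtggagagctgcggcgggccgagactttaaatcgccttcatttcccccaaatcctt
Of the 27 kept chains, 21 had an entry in the promoter table, and Col1a1 was not among them. In the 250 bases before the start, CCAAT stood in 9 of the 21, TATAAA in 3 and GGGCGG in 13. Among all 32851 RefSeq promoters of the same length the shares were 33.8%, 12.4% and 32.7%. The chains were counted by gene, with a match before any of its start sites, while these promoters were counted singly. Col5a3 had CCAAT at -122 and GGGCGG at -63 and -41, and Col1a2 had CCAAT at -109 and GGGCGG at -205 and -188, the last pair outside the bases shown. Col3a1 had only TATAAA at -117, and Col27a1 only GGGCGG at -85. None of the motifs stood in all 4 genes, and a match is a description of the sequence only.

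Col1a1, Col1a2, Col3a1 and Col4a1 have primer pairs in the study's list for RT-qPCR, and these are shown because they fix which part of each transcript that assay reads.
Col1a1 forward: gtgctcctggtattgctggt
Col1a1 reverse: ggctcctcgttttccttctt
Col1a2 forward: gtaacttcgtgcctagcaaca
Col1a2 reverse: cctttgtcagaatactgagcagc
Col3a1 forward: ctgtaacatggaaactggggaaa
Col3a1 reverse: ccatagctgaactgaaaaccacc
Col4a1 forward: ctggcacaaaagggacgag
Col4a1 reverse: acgtggccgagaatttcacc
Both primers of each pair matched transcripts of their own gene and of no other gene in GENCODE M21. The Col1a1 product had 212 bases and lay in exons 19 to 21 (chr11:94942343-94942854). The Col1a2 product had 230 bases from exon 1 to exon 6 (chr6:4505882-4512389). The Col3a1 product had 144 bases in exons 49 and 50 (chr1:45347175-45347646). The Col4a1 product had 238 bases from exon 4 to exon 9 (chr8:11244541-11246882). The study reports that fibrosis-related genes and Picro Sirius Red, a collagen stain, were raised in livers of mice fed HFDfri. Its text does not name the chains among these genes. In the libraries described below, Col1a1, Col1a2 and Col3a1 had log2 fold changes below 0, and the reason for this difference was not tested.

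To compare chains with one another, levels were divided by the length of the gene's exons (CPM per kb), merged over all annotated transcripts, so that a gene with long rare exons reads lower. Col18a1, the chain of type XVIII collagen whose end is released as endostatin, was by far the most abundant. Its level of 74.7 CPM per kb was 78.2% of the sum over the kept chains. Col5a3, a minor fibrillar chain of type V collagen, came next at 6.70 CPM per kb. Col14a1, a collagen found on the surface of fibrils, followed at 2.82, Col4a1 at 2.05, Col27a1 at 1.86, Col3a1 at 1.36 and Col4a2 at 1.25 CPM per kb. The library ranges of Col18a1 and Col5a3 did not overlap, nor did those of Col5a3 and Col14a1. From Col14a1 downwards each chain overlapped the next in order.

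**Figure D1:**
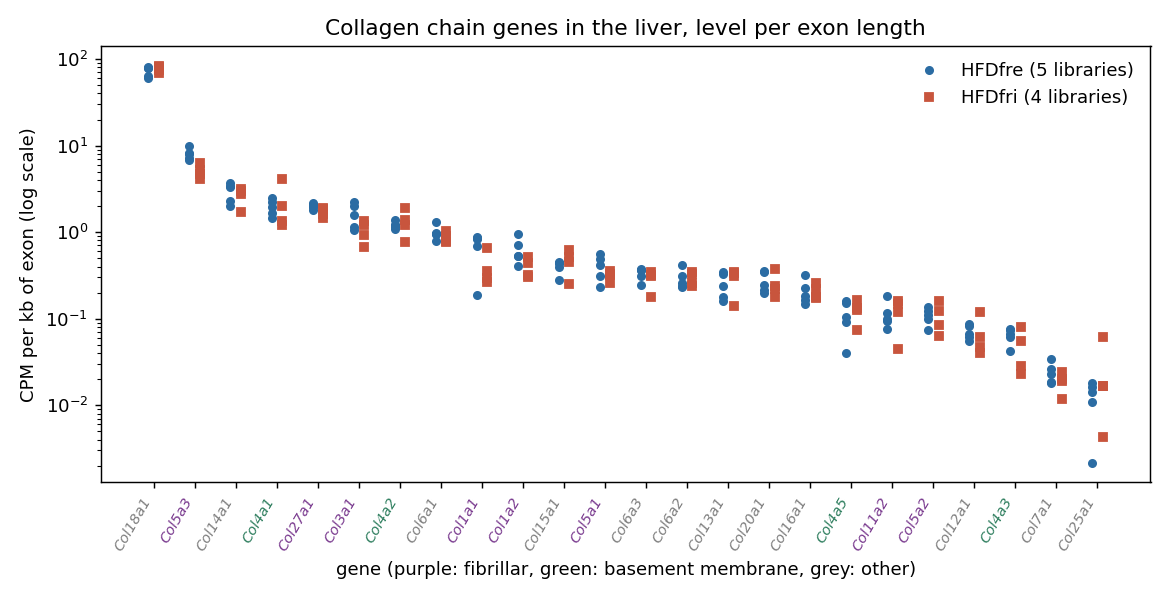
CPM per kb of exon (log axis) for the 24 kept collagen chains with a count in every library, one point per library, HFDfre circles and HFDfri squares, ordered by mean. Col18a1 lies between 60.8 and 83.6 and Col5a3 between 4.16 and 9.88, and Col24a1, Col9a3 and Col23a1 are left out because they were at 0 in 2 or 3 libraries.

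The chains of type I collagen, Col1a1 and Col1a2, were lower than Col5a3, at 0.554 and 0.524 CPM per kb. The type I trimer holds more Col1a1 than Col1a2 protein, and the ratio of Col1a1 to Col1a2 per length ran from 0.463 in HFDfre 2 to 1.65 in HFDfre 5, with a median of 0.911. Col4a1 and Col4a2, which pair in type IV collagen, had a ratio of 1.12 to 2.17. Col6a1 and Col6a2, of the beaded filaments of type VI, had a ratio of 2.72 to 4.01. These ratios depend on the merged exon lengths, 4380 bases for Col6a1 and 8326 for Col6a2, and 6563 for Col1a1 and 12426 for Col1a2. In CPM, not divided by length, the ratio of Col1a1 to Col1a2 was 0.245 to 0.872. Col25a1, a membrane collagen, was the lowest kept chain at 0.0177 CPM per kb.

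Of the 17 chains not kept, 8 had no count in any library: Col2a1, Col6a4, Col9a1, Col11a1, Col19a1, Col22a1, Col26a1 and Col28a1. A count of 0 allows up to 3 counts in a library, and covers counting error only. The other 9 reached at most 28 counts. Just inside the limit stood Col24a1 and Col23a1, at 10 or more counts in exactly 4 libraries, and just outside it Col8a2, Col6a6 and Col8a1, in exactly 3. Of the kept chains, 22 had 10 or more counts in every library.

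Between the diets, 1 of the 27 kept chains passed an adjusted p of 0.05 in edgeR's quasi-likelihood test, and this was Col5a3, which was lower in HFDfri. The share of all tested genes past that threshold was 1.05%. At an unadjusted p of 0.05 there were 4 chains, Col5a3, Col27a1, Col3a1 and Col1a2, all fibrillar and all lower in HFDfri, where 21.2% of all tested genes passed in either direction and 9.79% were lower. The 4 of 27 chains make up a smaller share than 21.2% and a larger one than 9.79%, and the count is not read as particular to collagen. The count was 2 without HFDfre 1 or HFDfri 3, and 1, Col5a3, without HFDfre 3 or HFDfri 1. Of the kept chains, 16 had a log2 fold change below 0, HFDfri minus HFDfre, and 11 above 0, with a median of -0.085, against a median of -0.0068 and 50.9% below 0 for all genes. The fibrillar chains were below 0 in 8 of 9 cases (median -0.34), the basement membrane chains in 1 of 4 (median 0.13) and the other chains in 7 of 14 (median 0.0015). The fibrillar median stayed below 0 in all 21 alternatives, and was -0.63 without HFDfri 4 and -0.19 with the share of Gm26924 as a covariate. The 8 fibrillar chains below 0 include Col5a2 and Col24a1, which turned to 0.15 and 0.24 without HFDfri 1. Col11a2, the fibrillar chain above 0, turned to -0.13 without HFDfri 3.

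**Figure D2:**
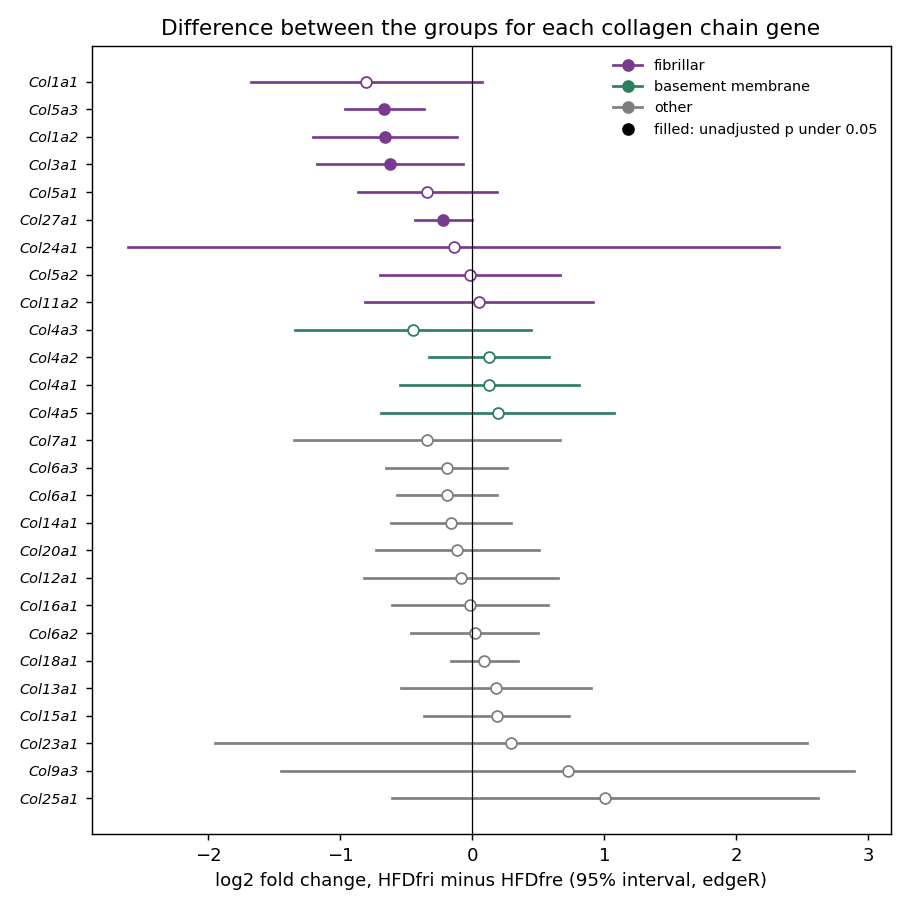
The log2 fold change of each kept chain, HFDfri minus HFDfre, with its 95% interval from edgeR, coloured by class, with filled points for an unadjusted p under 0.05. The fibrillar chains Col1a1, Col5a3, Col1a2 and Col3a1 lie between -0.80 and -0.62, and the basement membrane and other chains lie on both sides of 0.

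Col5a3 (ENSMUSG00000004098, chr9:20770050-20815067, minus strand) had the clearest difference. It was at 56.0, 54.5, 67.3, 49.1 and 46.0 CPM in HFDfre 1 to 5 and at 35.2, 42.5, 28.3 and 31.5 CPM in HFDfri 1 to 4. Every HFDfri library lay below every HFDfre library, as in 7.69% of all tested genes. The group levels were 54.6 ± 8.16 CPM (SD, n = 5) and 34.4 ± 6.11 CPM (SD, n = 4). Col5a3 thus fell by 0.67 ± 0.14 (SE) on the log2 scale, a level 0.630 times that of HFDfre, with edgeR's adjusted p at 0.0467 and a 95% interval of -0.97 to -0.37. The call stands close to the threshold. Over the 21 alternatives the log2 fold change stayed between -0.79 and -0.58, and 9 of them kept the call. Among the 12 alternatives that lost it were those without any one of the HFDfre libraries (edgeR's adjusted p 0.0611 to 0.109), without HFDfri 3 (0.141) and without HFDfri 4 (0.0926), with the Gm26924 share as a covariate (0.0705), with library totals alone (0.0863), with no filter (0.0640), and in the 5 libraries with Gm26924 under 3% (0.456). No exon of another gene overlapped Col5a3.

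Col3a1, the chain of type III collagen (ENSMUSG00000026043, chr1:45311538-45349706), was at 19.7, 10.3, 22.04, 11.2 and 15.6 CPM in HFDfre and at 9.21, 11.9, 6.60 and 13.2 CPM in HFDfri. HFDfre 2 and 4 lay within the HFDfri values. The difference was -0.62 ± 0.25 (SE) in log2 fold change, with edgeR's unadjusted p at 0.0297 and its adjusted p at 0.189. Col1a2, a type I chain (ENSMUSG00000029661, chr6:4504814-4541544), was at 8.84, 5.03, 11.9, 6.59 and 6.54 CPM against 3.74, 5.49, 3.98 and 6.48 CPM. Only HFDfre 2 fell within the HFDfri range, and the difference was -0.66 ± 0.25 in log2 fold change (edgeR's unadjusted p 0.0221, adjusted p 0.167). Without HFDfre 3, whose Col3a1 and Col1a2 levels were the highest of all libraries, the difference was -0.48 for Col3a1 and -0.46 for Col1a2.

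Col1a1, the other type I chain (ENSMUSG00000001506, chr11:94936224-94953042), had the largest difference below 0, at -0.80 ± 0.40 (SE), with edgeR's adjusted p at 0.279. Its libraries were at 5.58, 1.23, 5.46, 4.48 and 5.70 CPM in HFDfre and at 1.74, 2.31, 1.91 and 4.33 CPM in HFDfri. HFDfre 2 was the lowest of all 9 libraries and HFDfri 4 the highest of its group. The 95% interval, -1.68 to 0.073, includes 0, and without HFDfre 2 the log2 fold change was -1.05 and without HFDfri 4 it was -1.17. Col27a1, a fibrillar chain known from cartilage (ENSMUSG00000045672, chr4:63214004-63334991), varied little: 23.5 to 27.9 CPM in HFDfre (SD 6.33% of the mean) and 19.2 to 24.6 CPM in HFDfri (11.6%). Its difference was -0.22 ± 0.10 (SE), with edgeR's unadjusted p at 0.0461 and its adjusted p at 0.229, and 2 of the 4 HFDfri libraries, HFDfri 3 and HFDfri 4, lay above the lowest HFDfre library. The remaining fibrillar chains had log2 fold changes of -0.34 (Col5a1), -0.018 (Col5a2), 0.052 (Col11a2) and -0.14 ± 1.13 (Col24a1), the last of them near the count limit.

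**Figure D3:**
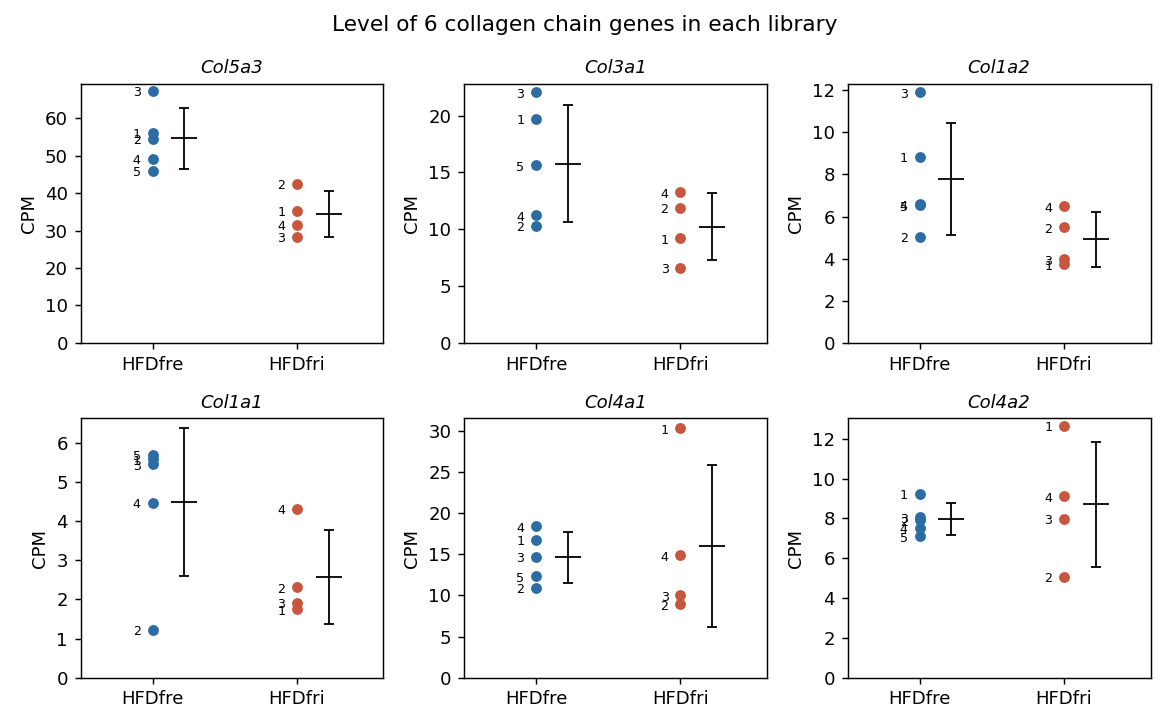
CPM of 6 collagen chains in each library, labelled with its replicate number, with the group mean and SD beside the points (5 HFDfre and 4 HFDfri libraries). For Col5a3 the groups do not overlap; for Col4a1 and Col4a2, HFDfri 1 is the highest library, at 30.3 and 12.6 CPM.

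Summed over the 9 fibrillar chains, the level was 98.5 to 138 CPM in HFDfre and 70.2 to 87.7 CPM in HFDfri, where Col5a3 and Col27a1 held most of the sum. These sums were taken after the values were seen and carry no test. Without Col5a3 and Col27a1 the sums were 23.5 to 45.8 CPM in HFDfre and 17.3 to 29.1 CPM in HFDfri, and these ranges overlapped.

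**Figure D4:**
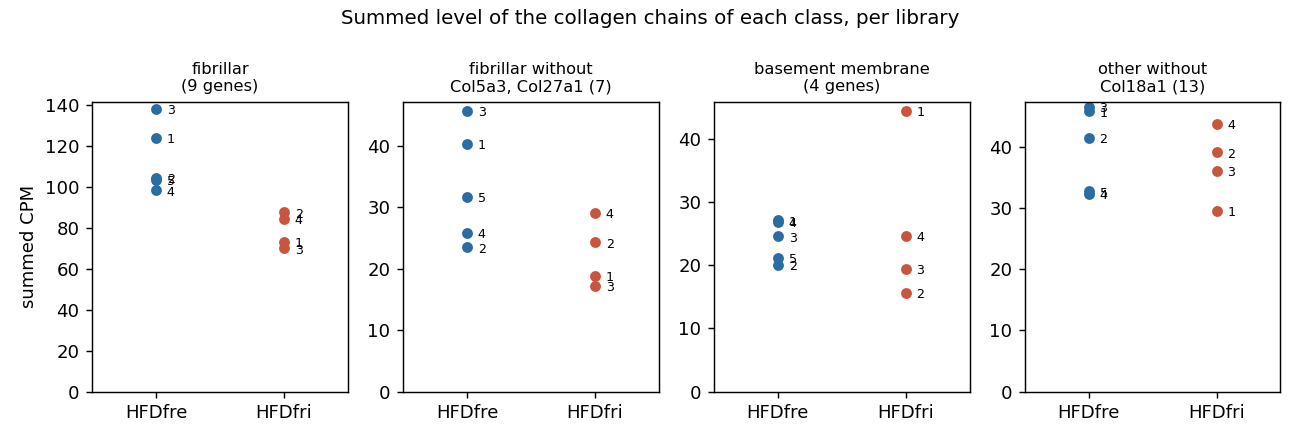
Summed CPM per library for the fibrillar chains, for the fibrillar chains without Col5a3 and Col27a1, for the basement membrane chains and for the other chains without Col18a1, with one labelled point per library. The fibrillar sums of the groups do not overlap, while the other sums do.

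The basement membrane chains did not separate the groups. Col4a1 (chr8:11198423-11312826) was at 16.8, 10.96, 14.7, 18.4 and 12.4 CPM in HFDfre and at 30.3, 8.90, 10.05 and 14.9 CPM in HFDfri. Col4a2 (chr8:11312805-11449287) was at 9.22, 7.91, 8.06, 7.51 and 7.11 CPM in HFDfre and at 12.6, 5.07, 7.98 and 9.10 CPM in HFDfri. In both genes HFDfri 1 was the highest library and HFDfri 2 the lowest, so the groups overlapped on either side. The log2 fold changes were 0.13 ± 0.31 for Col4a1 and 0.13 ± 0.21 for Col4a2 (edgeR's adjusted p 0.851 and 0.774, 95% intervals -0.55 to 0.81 and -0.33 to 0.58). Without HFDfri 1 both turned to -0.39 and -0.12, and the class median moved from 0.13 to -0.25. The genes start head to head, and their exons overlap by 22 bases on opposite strands. Col4a5 and Col4a3 differed by 0.19 and -0.45 in log2 fold change, neither past the test.

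**Figure D5:**
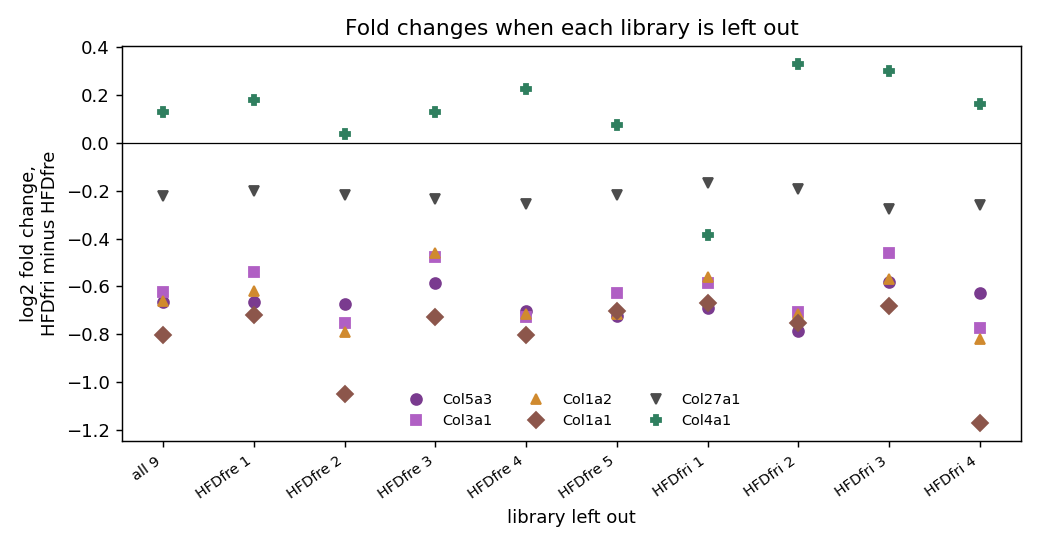
The log2 fold change, HFDfri minus HFDfre, of 6 collagen chains with all 9 libraries and with each library left out, as fitted by edgeR. The 5 fibrillar chains stay below 0 in every case, and Col4a1 goes below 0, to -0.39, without HFDfri 1.

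Col18a1 (chr10:77052178-77166548), the most abundant chain, was at 427 to 570 CPM in HFDfre and at 487 to 587 CPM in HFDfri. Its difference was 0.092 ± 0.12 (SE) in log2 fold change (edgeR's adjusted p 0.692), and the 95% interval was -0.16 to 0.34. Because Col18a1 made up 67.1 to 82.0% of the collagen CPM, the summed collagen level, 687 ± 64.9 CPM (SD, n = 5) in HFDfre and 685 ± 39.6 CPM (SD, n = 4) in HFDfri, mostly follows this one gene. Without Col18a1 the remaining 26 kept chains summed to 158 to 209 CPM in HFDfre and 126 to 153 CPM in HFDfri. Col5a3 alone was at 46.0 to 67.3 and 28.3 to 42.5 CPM, and the sums carry no test. Col14a1 was at 20.8 ± 5.22 and 18.6 ± 4.46 CPM (log2 fold change -0.16 ± 0.21, edgeR's adjusted p 0.708). The type VI chains Col6a1, Col6a2 and Col6a3 differed by -0.19, 0.018 and -0.20. Col25a1 had the largest difference above 0, at 1.01 ± 0.74, but this rested on HFDfri 3 at 0.787 CPM, since without that library the value was 0.010. None of the 14 other chains passed an unadjusted p of 0.05.

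The enzymes and partners of collagen were described from lists of pathway genes. Of the 24 tested genes for folding and modification in the endoplasmic reticulum (ER), 3 were higher in HFDfri at an unadjusted p of 0.05 (P4ha1, which hydroxylates proline, Sec24d of the transport vesicle coat, and Mia2) and 0 lower, while the chaperone Serpinh1 was at 0.21 ± 0.28 in log2 fold change. P4ha1 was at 16.7 CPM in HFDfri 3 and at 4.58 to 8.86 CPM in the other 8 libraries, and its log2 fold change of 0.57 was 0.22 without HFDfri 3 and 0.012 in the libraries with Gm26924 under 3%. That of Sec24d went from 0.25 to 0.15 without HFDfri 3. Mia2, at 1.27 in log2 fold change, was at 4.28 to 7.71 CPM in HFDfre. Its level in HFDfri 1, 2.40 CPM, was the lowest of all libraries. HFDfri 2 and HFDfri 3 were at 20.9 and 21.2 CPM, and HFDfri 4 at 8.01 CPM. Of 12 tested genes for cleavage and crosslinking, 1, the crosslinking enzyme Tgm2, was higher at 0.46 (0.25 without HFDfri 1) and 0 were lower. Of 14 tested genes for breakdown and its inhibitors, 1 was lower, Mmp19, a matrix metalloproteinase, at 52.3 CPM in HFDfre and 42.4 in HFDfri (log2 fold change -0.30, edgeR's adjusted p 0.1001). Of 7 collagen receptors, 0 passed either way. Of 30 tested other matrix proteins, 1 was higher (Fn1, fibronectin, 0.34) and 4 lower, among them Postn (-0.63), the periostin gene, and Fbln2 (-1.15). Of 22 genes of the TGF-beta pathway, a driver of collagen expression, 3 were higher, among them the receptor Tgfbr2 (0.41), and 1 lower. None of these 109 genes passed the adjusted threshold in edgeR, and DESeq2 called 4 of them (Mmp19, Postn, Fn1 and Agrn). DESeq2 gave lower adjusted p, as for Col5a3 with 0.000686 against 0.0467 in edgeR. The share of all genes that DESeq2 called is not given here, so its count is not read as particular to these lists. The share of all tested genes at an unadjusted p of 0.05 in edgeR was 11.4% higher and 9.79% lower.

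Markers of the cells that make collagen were examined beside these results. The summed level of 17 stellate cell markers was 356 to 444 CPM in HFDfre and 453 to 629 CPM in HFDfri. Steap4, a metalloreductase that other cells also express, rose by 1.55 ± 0.30 on the log2 scale (edgeR's adjusted p 0.0387), and without it the ranges were 273 to 386 and 242 to 362 CPM. That call was lost in 13 of the 21 alternatives, among them those without any one HFDfre library, without HFDfri 3 and without HFDfri 4 (edgeR's adjusted p 0.0639 to 0.106). Of the 17 markers, 10 had a log2 fold change above 0 and 7 below 0 (median 0.052). At an unadjusted p of 0.05, 1 was higher (Steap4) and 3 were lower, Lhx2 (-0.84), Des (-0.63) and Hand2 (-0.39), beside 11.4% and 9.79% of all tested genes. The stellate markers Lrat and Pdgfrb were at 0.071 and 0.057 in log2 fold change. The 10 myofibroblast and smooth muscle markers summed to 33.2 to 48.3 CPM and 29.3 to 33.1 CPM, where Tpm2, a tropomyosin, fell by 1.11 on the log2 scale (edgeR's adjusted p 0.0293; 0.0539 to 0.0852 without HFDfre 3, HFDfre 5, HFDfri 3 or HFDfri 4, and 0.157 in the libraries with Gm26924 under 3%) and Acta2 was at -0.047. Without Tpm2 the ranges were 20.4 to 25.8 CPM and 20.7 to 24.7 CPM. Of the 9 markers tested, Tpm2 among them, 4 were above 0 and 5 below 0. Portal fibroblast markers summed to 28.4 to 40.1 and 24.1 to 35.6 CPM, with a median log2 fold change of -0.32 over 8 tested genes. Of these 8, 2 were lower at an unadjusted p of 0.05 in edgeR and 0 higher. Endothelial markers summed to 177 to 220 and 148 to 207 CPM. They had 11 of 14 log2 fold changes below 0, beside 50.9% of all tested genes. Of these 14, 4 were lower at an unadjusted p of 0.05 in edgeR and 0 higher, beside 9.79% lower among all tested genes. In 2 of the 14 the groups did not overlap, as in 7.69% of all tested genes. The part of these cells in the lower fibrillar levels was not tested.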

How the data were processed

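RNA was extracted from liver with TRIzol and sequenced as paired-end Illumina reads. The labels name the NEBNext Ultra kit and the study's methods KAPA RNA HyperPrep, and this was not settled. The authors aligned with HISAT2 and the processing notes also name StringTie and build mm10, with no versions. The authors deposited 1 table of estimated counts per gene, whole numbers that are not put on a common scale. Small values gather at multiples of 4 (4 in 3990 gene and library pairs, 3 in 2172, 5 in 1840), and the cause was not tested, so counting error is approximate.

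All columns were matched to samples by title. Counts were tested with edgeR 4.0.16 in R 4.3.3 (quasi-likelihood, TMM, filterByExpr by group, no covariate, HFDfri minus HFDfre, Benjamini-Hochberg over 14220 genes). CPM used TMM-scaled totals, and log2 CPM a prior count of 2. Standard errors are the log2 fold change over the square root of F. The p-values test the difference between the groups against the spread between these samples. DESeq2 1.42.0, the study's tool, and voom of limma 3.58.1 were alternatives, with other scalings, filters and left-out libraries. The fit was tested on simulated data. Exon lengths and coordinates came from GENCODE M21 (GRCm38, holding 96.3% of the identifiers), and promoters from RefSeq. Strand use in counting is not given in the sources used here, so overlapping exons on opposite strands cannot be told apart.

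The members, lists and named genes were chosen with earlier results of these data known. Named chains were the RT-qPCR targets, Col4a2, the 6 most abundant by CPM, those at an unadjusted p under 0.05 and those with the largest fold change each way; named list genes were a fixed set, those past the adjusted threshold and the 2 of lowest p per list. Further cell lists (cholangiocyte, mesothelium, macrophage) are in the closing section.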

Additional observations from a re-analysis of the deposited data

Results flagged for a closer look

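Within-group gaps in log2 CPM were examined for the 27 kept chains in both groups, which makes 54 sets of libraries. In 3 sets the lowest library stood apart from the rest of its group by more than Dixon's 95% limit, where chance gives about 2.7. Col1a1 was at 0.33 in HFDfre 2, against 2.17 to 2.52 in the other HFDfre libraries. Col6a3 was at 1.10 in HFDfri 1, against 1.92 to 2.06 in the other HFDfri libraries, and Col13a1 was at -0.57 in the same library, against 0.54 to 0.70.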

How the results depend on the processing

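The count of 1 collagen chain past the adjusted threshold became 0 with library totals alone, with no filter, with the replicate block, with the Gm26924 share as a covariate and in the libraries with Gm26924 under 3%. Leaving out each library gave 0 to 1. The adjusted p under the replicate block was 0.153 for Col5a3, 0.153 for Steap4 and 0.148 for Tpm2 (edgeR). The count of 4 at an unadjusted p of 0.05 was 1 under the replicate block and 1 to 5 with a library left out; without HFDfre 1 or HFDfri 3 it was 2, and without HFDfre 3 or HFDfri 1 it was 1, Col5a3. The replicate numbers do not pair the samples: same-numbered libraries deviated together with correlations of -0.136 to 0.0813, none of 4 over 0.1. The basement membrane median ranged from -0.25 to 0.25 with a library left out. Of the 109 pathway list genes, cell markers not counted, DESeq2 called 4, where its share of all genes is not given here. Leaving out a library gave 0 to 1 (Mia2, without HFDfri 1). Col5a3, Col3a1, Col1a2, Col1a1 and Col27a1 kept their direction in all 21 alternatives. Among named genes past no adjusted threshold, the log2 fold change turned for Col4a1 with voom (-0.054) and the replicate block (-0.079), and in the libraries with Gm26924 under 3% for Col25a1 (-0.021), Plod2 (-0.048), Timp2 (-0.13), Lrat (-0.019) and Bgn (0.13). With the Gm26924 covariate it turned for Lox (0.063), Tgfb1 (0.15) and Bgn (0.14), with library totals for Tgfb1 (0.052), Acta2 (0.00128) and Bgn (0.085), with the replicate block for Acta2 (0.16), and without Gm26924, mitochondrial and Mup genes for Bgn (0.00952). With a library left out, values ran from -0.39 to 0.33 for Col4a1, -0.12 to 0.31 for Col4a2, -0.098 to 0.40 for Serpinh1, -0.085 to 0.10 for P4hb, -1.61 to 0.034 for Lox, -0.084 to 0.14 for Timp2, -0.16 to 0.097 for Tgfb1, -0.078 to 0.19 for Pdgfrb, -0.21 to 0.24 for Acta2, -0.074 to 0.19 for Lrat, -0.28 to 0.00072 for Dcn and -0.14 to 0.14 for Bgn. The cause was not tested. The alternatives without Gm26924, mitochondrial and Mup genes and with counts divided by 4 were chosen after seeing the data.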

Other observations

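Of 9 hepatocyte genes, 2 were higher in HFDfri at an unadjusted p of 0.05 and 1 lower: Hnf4a (log2 fold change 0.46, no overlap between the groups), Cps1 (0.70) and Ttr (-0.43), the last named after its value was seen. Their sums were 107197 to 113956 CPM in HFDfre and 96277 to 123854 CPM in HFDfri. None of the 9 passed the adjusted threshold in edgeR, but Hnf4a did in 5 of the 21 alternatives and Cps1 in 2. Of 7 tested cholangiocyte genes, 1, Sox9, was higher in HFDfri at an unadjusted p of 0.05 (log2 fold change 0.93, past the adjusted threshold in 2 of the 21 alternatives), and the list summed to 26.2 to 47.0 CPM in HFDfre and 24.2 to 48.0 CPM in HFDfri. All 7 mesothelial genes had a log2 fold change above 0 (median 0.52), 0 of them at an unadjusted p of 0.05 in edgeR, and their sums were 1.33 to 10.6 and 9.17 to 11.6 CPM. The lowest sum was that of HFDfre 4 alone, and the next lowest HFDfre library, HFDfre 2, was at 6.37 CPM. Of 10 Kupffer cell and macrophage genes 8 were below 0, 0 of them at an unadjusted p of 0.05 in edgeR. Among all tested genes, 11.4% were higher and 9.79% lower at an unadjusted p of 0.05 in edgeR. The groups did not overlap in 7.69% of all tested genes, and 50.9% had a log2 fold change below 0.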
